A study of Mus musculus with 9 samples.

Results

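Choroid plexus markers were followed in hippocampal RNA on 9 arrays, as 10 genes that mark the epithelium of the choroid plexus, the sheet of secretory tissue inside the brain ventricles. Every probe set, the group of probes that reads 1 transcript, was taken whose only gene symbol in the platform annotation was a marker and which had no exact 0 on any array. This gave 9 probe sets for 9 of the 10 genes, namely Ttr, Kl, Folr1, Clic6, Kcne2, Kcnj13, Slc4a5, Aqp1 and Otx2, 1 each, out of 21959 probe sets tested. Enpp2 was not analysed here. The mice were males of SAMP10, an inbred strain with accelerated senescence, that ate from 1 to 12 months of age a control diet, or a diet with 3.0% of an extract of yellow soybean or of green soybean, with 3 arrays per diet. The treatment text of the labels is the same for every array, so the diet was read from each array's own source label, and the titles carry SMP30 where the strain label has SAMP10. The labels do not tie an array to a mouse, a pool of mice or a cage. The p-values therefore cover the spread between these arrays, which may be technical, and cage and diet cannot be told apart.

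The choroid plexus makes most of the cerebrospinal fluid by moving ions and water across its epithelium, and it also secretes carrier proteins into that fluid. Transthyretin, the product of Ttr, carries thyroid hormone and, through retinol-binding protein, vitamin A, and it is among the most abundant transcripts of this epithelium and scarce in neurons. The plexus lies beside the hippocampus along the lateral ventricle, so a piece of it can stay attached when the hippocampus is dissected. In bulk RNA such as this, fewer cells of a type and less RNA per cell cannot be told apart.

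Expression is given as the score that the authors deposited for each probe set and array, a normalized value whose logarithm base is not given in the sources used here, and every level and difference stands in units of that score. For 1345 of the tested probe sets, Kcnj13 among them, the authors had set the control mean to 0, so that only their differences can be read. Levels were therefore ranked among the other 20614, whose median mean score was 0.176. The mean correlation of an array with the other arrays ran from 0.977 to 0.981 for 8 arrays and was 0.958 for green soybean replicate 3.

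Among the secreted carriers and surface proteins, Ttr stood out by its level and its spread. Its score was 1.78, 0.446 and 1.23 on control replicates 1, 2 and 3, 2.07, 1.55 and 1.02 on the yellow soybean replicates in the same order, and 2.46, 1.08 and 1.41 on the green soybean replicates. Green soybean replicate 1 was the highest array and control replicate 2 the lowest, and the 3 diets overlapped. The diet means were 1.15 ± 0.672 (SD, n = 3) for control, 1.55 ± 0.523 for yellow soybean and 1.65 ± 0.716 for green soybean. The mean level of Ttr was above that of 95.6% of the uncentred probe sets. Its range over the arrays, 2.01 units, was wider than that of 99.99% of the uncentred probe sets.

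Kl encodes klotho, a membrane protein that serves as co-receptor for FGF23 and is shed into the cerebrospinal fluid. It scored 0.491, 0.341 and 0.403 in controls, 0.431, 0.443 and 0.357 with yellow soybean and 0.593, 0.363 and -0.0275 with green soybean. Both the highest and the lowest array were green, replicates 1 and 3, so that the spread was widest in that diet, at a mean of 0.310 ± 0.314 (SD, n = 3) against 0.412 ± 0.0755 in controls and 0.410 ± 0.0463 with yellow soybean. Folr1 encodes folate receptor alpha, which takes folate across the choroid plexus into the fluid. Its scores were -0.00550, -0.301 and -0.191 in controls, -0.0631, -0.199 and -0.201 with yellow soybean and 0.0855, -0.288 and -0.0315 with green soybean. As for Ttr, green soybean replicate 1 was highest and control replicate 2 lowest, and the diets overlapped.

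Of the genes for ion channels and transporters, Kcnj13 had the widest range. It encodes the inward-rectifier potassium channel Kir7.1 of the apical membrane. Around a control mean that the authors had set to 0, the score was 0.351, -0.304 and -0.0469 in controls, 0.304, 0.167 and 0.254 with yellow soybean and 0.845, 0.0448 and 0.0906 with green soybean. Green soybean replicate 1 lay far above the other 8 arrays, and the other green arrays lay inside the control range. The range of 1.15 units was wider than that of 99.9% of the uncentred probe sets. In the authors' deposited table the p-value of Kcnj13 was 0.00150, of a test that the sources used here do not name. For the other markers that p-value ran from 0.0106, for Slc4a5, to 0.940, for Kcne2, and it was 0.0206 for Ttr. No tested probe set with the control mean set to 0 had a deposited p above 0.00497, so a small value goes with that centring.

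Slc4a5 encodes an electrogenic sodium bicarbonate cotransporter, and Clic6 a member of the chloride intracellular channel family. Slc4a5 scored -0.309, -0.416 and -0.546 in controls, -0.168, -0.311 and -0.331 with yellow soybean and 0.00917, -0.262 and -0.252 with green soybean. It was the only marker whose 3 green arrays all lay above the 3 control arrays, while the yellow arrays overlapped both. Clic6 scored -0.313, -0.686 and -0.680 in controls, -0.406, -0.401 and -0.703 with yellow soybean and -0.236, -0.525 and -0.251 with green soybean. Its 2 highest arrays were green, replicates 1 and 3, and green soybean replicate 2 lay inside the control range.

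Kcne2 encodes a regulatory subunit of potassium channels, and Aqp1 the water channel of the apical membrane. Kcne2 scored -0.497, -0.473 and -0.360 in controls, -0.364, -0.430 and -0.402 with yellow soybean and -0.159, -0.609 and -0.130 with green soybean. Here green soybean replicate 3 was highest and green soybean replicate 2 lowest. Aqp1 scored -0.352, -0.295 and -0.208 in controls, -0.228, -0.379 and -0.322 with yellow soybean and -0.228, -0.252 and -0.428 with green soybean. Its range of 0.220 units was wider than that of 39.4% of the uncentred probe sets, and control replicate 3 was its highest array.

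Otx2 encodes a homeodomain transcription factor that the plexus expresses in the adult. Its scores were -0.236, -0.434 and -0.502 in controls, -0.436, -0.362 and -0.704 with yellow soybean and -0.148, -0.542 and -0.424 with green soybean. Green soybean replicate 1 was the highest array and yellow soybean replicate 3 the lowest, with overlap of all diets. Across the markers, green soybean replicate 1 was the highest of the 9 arrays for 7 of the 9 probe sets, all but Kcne2 and Aqp1, while 20.1% of all tested probe sets were highest there and 24.7% on green soybean replicate 3. Control replicate 2 was the lowest for Ttr, Folr1 and Kcnj13, against 12.4% of all tested probe sets.

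Of the 8 markers whose level could be ranked, only Ttr and Kl lay above the median level. The other 6 lay below it, with mean scores above those of 30.8% of the uncentred probe sets for Folr1, 19.9% for Slc4a5, 19.0% for Aqp1, 12.7% for Kcne2, 9.80% for Otx2 and 6.67% for Clic6. These are levels of different probe sets and give no order between genes.

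Upstream sequence was read for 6 of the 9 genes from RefSeq (assembly GRCm38.p6), and 3 windows of 250 bases before the start are shown, for the transporters Kcnj13 and Slc4a5, which had the highest Pearson's r with Ttr over 9 arrays among the genes with an entry, and for the start of Otx2 that holds a match to the core motif bound by OTX proteins. Capitals mark motif matches, read on both strands. The motifs searched were the OTX core TAATCC, which reads GGATTA on the other strand and which 6.25% of the 32851 promoter windows hold, and the TATA box TATAAA, which reads TTTATA on the other strand and which 12.4% hold. The Kcnj13 window lies on the minus strand at chr1:87394730-87394979, the Slc4a5 window on the plus strand at chr6:83237125-83237374, and the Otx2 window on the minus strand at chr14:48665110-48665359.
Kcnj13: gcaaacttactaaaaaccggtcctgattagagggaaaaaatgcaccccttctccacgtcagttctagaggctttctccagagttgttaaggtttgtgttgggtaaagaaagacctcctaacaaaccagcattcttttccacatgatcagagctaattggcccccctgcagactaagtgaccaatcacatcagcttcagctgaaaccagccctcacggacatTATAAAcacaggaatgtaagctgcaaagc
Slc4a5: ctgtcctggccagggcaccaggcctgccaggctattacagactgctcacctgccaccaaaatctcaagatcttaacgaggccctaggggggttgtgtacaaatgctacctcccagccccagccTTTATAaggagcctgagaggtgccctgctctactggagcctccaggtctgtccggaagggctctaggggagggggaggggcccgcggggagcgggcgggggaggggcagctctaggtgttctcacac
Otx2: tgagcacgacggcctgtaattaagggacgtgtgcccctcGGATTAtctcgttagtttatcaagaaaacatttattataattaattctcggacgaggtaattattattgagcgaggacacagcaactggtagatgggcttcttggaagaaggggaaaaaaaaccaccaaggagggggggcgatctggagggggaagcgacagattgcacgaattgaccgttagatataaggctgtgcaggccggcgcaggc
The TATA match began 29 bases before the start in Kcnj13 and 127 bases before it in Slc4a5, where it reads on the other strand, and the OTX core match lay 211 bases before that start of Otx2. Neither the Kcnj13 nor the Slc4a5 window holds these letters of the OTX core. Nor does any other upstream window read, the other starts of Otx2 included, and the Otx2 window was shown because of its match. A match is a description of the letters and not evidence of binding.

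Green soybean was set against control to ask how these plexus transcripts differ when the green extract is fed. None of the 9 markers passed limma's test at an adjusted p below 0.05, and neither did any other probe set tested (0%). The difference for Ttr was 0.497 ± 0.376 (SE), with a 95% interval from -0.323 to 1.32 and a limma adjusted p of 0.696. For Slc4a5 it was 0.256 ± 0.0842, with an interval from 0.0719 to 0.439, an unadjusted limma p of 0.0105 and an adjusted p of 0.449. That was the only marker at an unadjusted p below 0.05, where 8.32% of all tested probe sets were higher with the green extract and 1.40% lower. Arrays that lay wholly above the controls, as for Slc4a5, were found for 13.2% of all tested probe sets, and wholly below for 2.67%.

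Kcnj13 differed by 0.327 ± 0.194 (SE) and Clic6 by 0.223 ± 0.116, both with intervals that include 0 and limma adjusted p values of 0.612 and 0.556. Smaller differences were measured for Kcne2, at 0.144, Folr1, at 0.0880, and Otx2, at 0.0191. The water channel gene Aqp1 differed by -0.0177, with an interval from -0.165 to 0.129, and the klotho gene Kl by -0.102. In all 7 of the 9 markers were higher with green soybean (6 with array medians aligned or quantile normalization, where Otx2 turned lower), as were 65.0% of all tested probe sets, and 35.0% were lower. The median difference of the markers was 0.144, and that of all tested probe sets 0.0296.

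These differences moved with single arrays. Without green soybean replicate 1 the difference became 0.0946 for Ttr, 0.0677 for Kcnj13, 0.00636 for Folr1, -0.0925 for Otx2 and -0.244 for Kl, while Slc4a5 stayed at 0.167 and Clic6 at 0.172. Without control replicate 2 it became 0.144 for Ttr and 0.175 for Kcnj13. Without green soybean replicate 3, the array that stood apart, all 9 markers were higher with green soybean, Kl at 0.0666 and Aqp1 at 0.0447 included. The median difference of the markers was nevertheless smaller there, at 0.0666 against 0.144 on all arrays. The share of all tested probe sets that were higher was not computed without that array, so the count of markers has no background. The differences of Ttr and Kcnj13 thus rest largely on 1 array of each diet, and those of Slc4a5 and Clic6 less so.

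**Figure D1:**
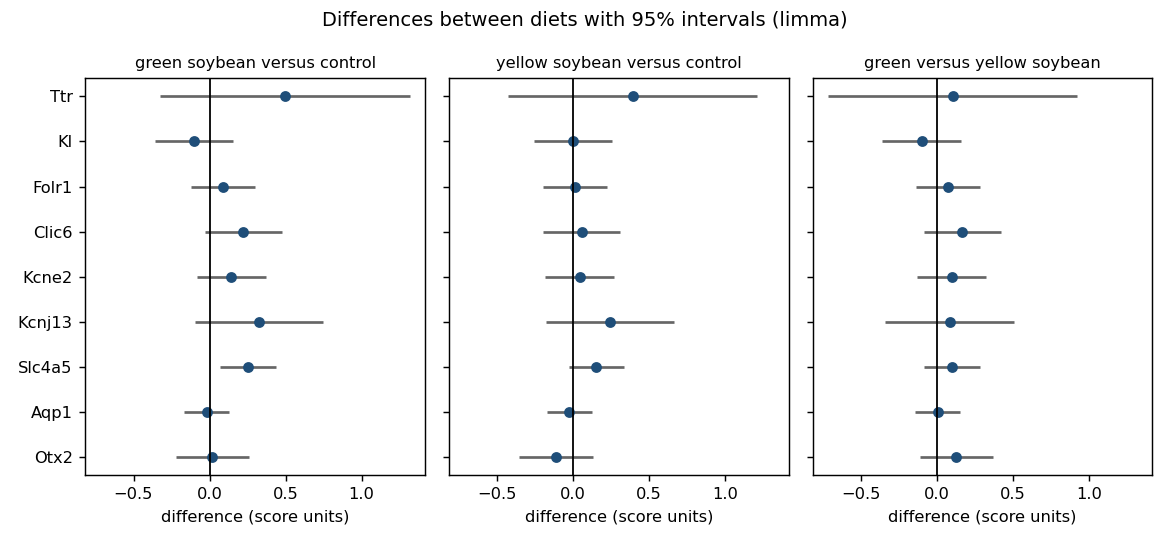
Difference in deposited score (x axis, score units) between diets for the 9 choroid plexus probe sets, with points for limma estimates and lines for 95% intervals, n = 3 arrays per diet. All intervals include 0 except that of Slc4a5 for green soybean versus control, 0.0719 to 0.439, and Ttr has the widest.

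With yellow soybean against control, Ttr was 0.392 higher with an interval from -0.428 to 1.21, Kcnj13 0.242 higher with an interval from -0.181 to 0.664, and Slc4a5 0.154 higher with an interval from -0.0303 to 0.337. The other 6 markers differed by between -0.110, for Otx2, and 0.0564, for Clic6. No marker passed and none had an unadjusted p below 0.05 in limma, the adjusted p being 1.00 for each of them. Among all tested probe sets 0% passed after adjustment, and 2.11% were higher and 0.929% lower at an unadjusted p below 0.05. The markers were higher in 6 of 9 cases (5 with either rescaling, where Folr1 turned lower), as were 60.4% of all tested probe sets, with 39.6% lower. No marker had yellow arrays wholly above or below the controls, which held for 6.65% and 2.65% of all tested probe sets.

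Between the 2 extracts, Ttr differed by 0.105 with an interval from -0.715 to 0.925. The largest difference was that of Clic6, 0.166 higher with green soybean, followed by Otx2 at 0.129, and Slc4a5 differed by 0.102, and Kl was lower, at -0.10. Limma adjusted p values of the markers ran from 0.790 to 0.992. The markers were higher with green soybean in 8 of 9 cases (7 with either rescaling, where Aqp1 turned lower), as were 58.0% of all tested probe sets, with 42.0% lower. Without green soybean replicate 1 that count was 4, a setting for which the share of all tested probe sets was not computed. No marker reached an unadjusted p below 0.05, which 5.56% of all tested probe sets did as higher and 1.53% as lower, and none had green arrays wholly above (7.63% of all) or below (2.92%) the yellow arrays. In limma's moderated F-test over the 3 diets, Slc4a5 had a p of 0.0320 and an adjusted p of 0.690, and 7.06% of all tested probe sets had an unadjusted p below 0.05. The green comparisons share arrays with each other, and both comparisons with control share the control arrays, so their values are not independent.

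The markers were then compared over the arrays, which asks whether they move together whatever the diet. Ttr, the gene with the highest score, was taken as the reference. Kcnj13 followed it most closely, with Pearson's r = 0.892 (exact permutation p = 0.00207) and Spearman's rho = 0.800 (exact permutation p = 0.0138) over 9 arrays. Folr1 reached r = 0.873 (exact permutation p = 0.00190) and rho = 0.867 (exact permutation p = 0.00451). The potassium channel and the folate receptor thus had their highest and their lowest array where Ttr had them, but not every array between. Yellow soybean replicate 3 was below replicate 2 of that diet for Ttr, at 1.02 and 1.55, but above it for Kcnj13, at 0.254 and 0.167.

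Clic6 had r = 0.782 (exact permutation p = 0.0120) and rho = 0.817 (exact permutation p = 0.0108), and Slc4a5 r = 0.751 (exact permutation p = 0.0217) and rho = 0.733 (exact permutation p = 0.0311). Otx2 had r = 0.673 (exact permutation p = 0.0457) and rho = 0.683 (exact permutation p = 0.0503). For Kcne2, Kl and Aqp1 the correlation was weaker. Kcne2 had r = 0.488 and rho = 0.367 (exact permutation p = 0.181 and 0.336), and Aqp1 r = 0.173 and rho = 0.133 (exact permutation p = 0.656 and 0.744). Kl had r = 0.433 with rho = 0.783 (exact permutation p = 0.250 and 0.0172), and its r was 0.898 without green soybean replicate 3, on which its score was lowest.

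All tests were 2-sided, and with adjustment over the 21958 correlations with Ttr none passed, for markers or any other probe set (0% for either coefficient). The adjusted p was 0.999 for each Pearson correlation of a marker, and 0.987 for each Spearman correlation except that of Aqp1, at 0.991. All 8 markers correlated above 0 with Ttr, where 66.3% of all tested probe sets did, and 4 of 8 had an r of 0.7 or more, where 2.27% did. At an exact unadjusted p below 0.05 with a positive r, which 3.31% of all tested probe sets had, stood 5 of the 8. The median r was 0.712 for the markers and 0.142 for all tested probe sets.

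With the mean of each diet subtracted, so that only differences between arrays of a diet remain, the correlations kept their size. The r with Ttr was then 0.892 for Folr1, 0.874 for Kcnj13, 0.812 for Otx2, 0.786 for Clic6, 0.755 for Slc4a5, 0.574 for Kl, 0.420 for Kcne2 and 0.241 for Aqp1. That put 5 of the 8 markers at 0.7 or more, against 4.29% of all tested probe sets, and the median at 0.770, against 0.112. The array numbered 1 was the highest of its diet in all 3 diets for Ttr, Folr1, Kcnj13 and Slc4a5, 4 of the 9 markers, against 5.89% of all tested probe sets, a feature chosen after the values were seen.

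The relation was measured again without the arrays at either end. Without the 2 arrays farthest from the median of Ttr, green soybean replicate 1 at 2.46 and control replicate 2 at 0.446, r became 0.720 for Otx2 (exact permutation p = 0.0655) and 0.718 for Folr1 (exact permutation p = 0.0738). It was 0.644 for Clic6 and 0.613 for Kcnj13 (exact permutation p = 0.127 and 0.147), and 0.483 for Slc4a5 (exact permutation p = 0.269). It dropped to 0.255 for Kl, 0.135 for Kcne2 and -0.0236 for Aqp1. With 7 arrays left no marker had an exact p below 0.05. The r was smaller than on 9 arrays for each marker except Otx2, whose r was larger.

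**Figure D2:**
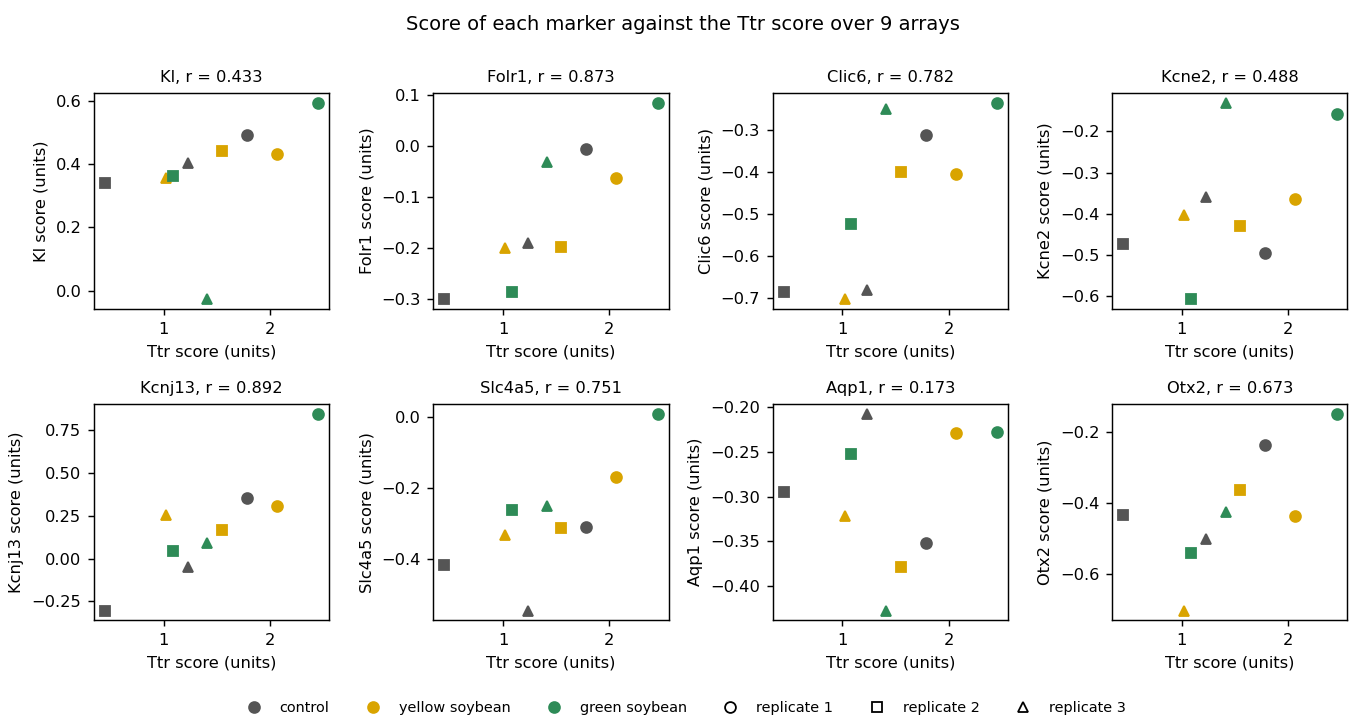
Score of each other choroid plexus probe set (y axis, score units) against the score of Ttr (x axis, score units), 1 point per array coloured by diet. Kcnj13 (r = 0.892) and Folr1 (r = 0.873) rise along the Ttr axis, with green soybean replicate 1 at the upper right, and Aqp1 (r = 0.173) does not.

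Over all 36 pairs of markers, the median r was 0.508, 30 pairs lay above 0 and 9 reached 0.7, where 3.90% of all pairs of tested probe sets did. With diet means subtracted the median was 0.603 and 14 pairs reached 0.7. Without green soybean replicate 1 the median was 0.212, 25 pairs lay above 0, 4 reached 0.7, and the range ran from -0.741, between Kl and Kcne2, to 0.823. The share of all pairs was not computed for these settings, so their counts cannot be set against 3.90%. For r with Ttr, subtracting diet means raised the share of all tested probe sets at 0.7 or more from 2.27% to 4.29%. Clic6 and Ttr each had 4 partners at 0.7 or more, and Aqp1, Kl and Kcne2 had none. Aqp1 had a median r of 0.0199 with the other markers. Pairs share arrays and genes, so they are not independent of each other.

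**Figure D3:**
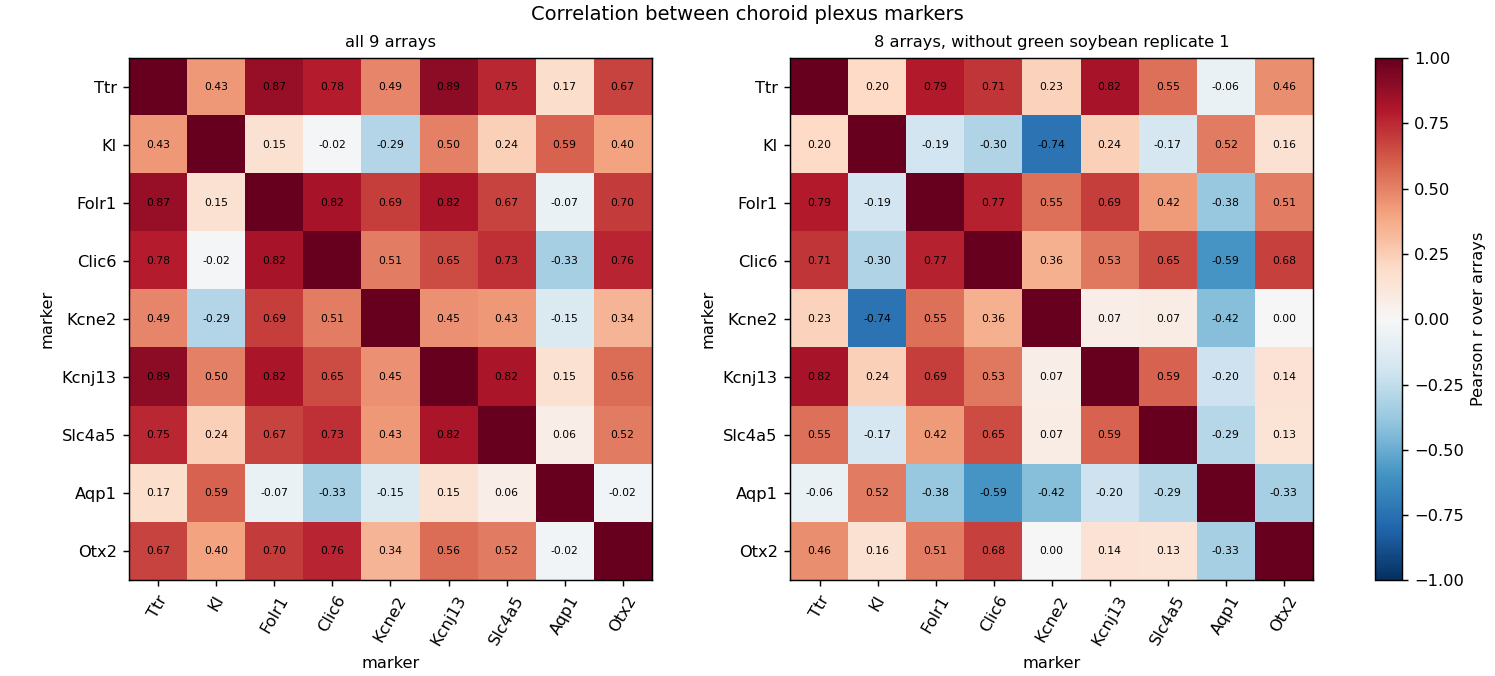
Pearson's r (colour, from -1 to 1) between the scores of the 9 choroid plexus probe sets over 9 arrays, on all 9 arrays (left) and without green soybean replicate 1 (right), with each r printed in its cell. The median over the 36 pairs is 0.508 on the left and 0.212 on the right, where Kl and Kcne2 reach -0.741.

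Other genes known from the choroid plexus were followed next. Of 29 listed, 23 were measured, and Cldn2, the claudin of its leaky tight junctions, Steap1, Slco1a5 and Tc2n were listed at 0 on at least 1 array. With green soybean 19 of the 23 were higher than in controls and 4 lower, with a median of 0.0831, and 0 passed limma's test. Igfbp2, a binding protein of insulin-like growth factors, differed by 0.181 ± 0.0829 (SE, limma adjusted p = 0.513) and Msx1, a homeobox factor, by 0.166 ± 0.0630 (limma adjusted p = 0.469). Col8a1, a short-chain collagen, differed by 0.138, and Wfikkn2, a secreted protease-inhibitor-like protein, by 0.0923.

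Of these 23 genes, 22 correlated above 0 with Ttr and 5 had an r of 0.7 or more. They were Cox8b, a subunit of cytochrome oxidase, at 0.758, Trpm3, a cation channel, at 0.744, Wfikkn2 at 0.726, Ace, the angiotensin-converting enzyme, at 0.720, and Tmem72 at 0.711. The median r was 0.519, and 0.295 without green soybean replicate 1. The summed score of the 23 genes ran from -2.22 to 0.459 on control arrays, from -0.538 to -0.143 on yellow arrays and from -1.06 to 3.03 on green arrays. The extremes were control replicate 2 and green soybean replicate 1, the same arrays as for the sum of the 9 markers, which ran from -2.12 to 0.915, from -1.03 to 1.14 and from -0.984 to 3.22. The summed scores of the leptomeningeal and endothelial lists had the same extreme arrays, so this is not particular to the plexus genes. Nor is it particular to these lists. The median score of all uncentred probe sets was also lowest on control replicate 2, at 0.156, and highest on green soybean replicate 1, at 0.216. How much of the summed scores goes with this shift of whole arrays was not tested.

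Genes that work with the markers were measured too. For the ion transport that drives fluid secretion, 11 of 13 listed genes were measured, 8 higher than in controls and 3 lower with the green extract, with 0 passing and a median of 0.0710. Trpv4, an osmotically gated cation channel of the plexus, had the highest r of them with Ttr, 0.912, and differed by 0.120 between green soybean and control. Slc4a2, an anion exchanger, had an r of 0.760, and the other 9 were below 0.7. The median r over the 11 was 0.222, and 0.0592 without green soybean replicate 1, with 8 of the 11 above 0. Kcnq1, a potassium channel subunit that pairs with Kcne2, differed by 0.151 (limma adjusted p = 0.542) and had an r of 0.222.

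Of the genes for thyroid hormone and retinol transport, the cargo of transthyretin, 7 of 10 were measured, 5 higher and 2 lower with green soybean, with 0 passing. Rbp4, the retinol-binding protein that rides on transthyretin, differed by 0.0453, Thrb, a thyroid hormone receptor, by 0.0583, Slco1c1, a thyroxine transporter, by -0.0480, and Dio2, the activating deiodinase, by -0.0988. Their median r with Ttr was 0.0179, and none reached 0.7.

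For folate, 7 of 9 genes were measured, 4 higher and 3 lower, with 0 passing. Folr2, folate receptor beta, differed by 0.158 (limma adjusted p = 0.461) and Slc19a1, the reduced folate carrier, by 0.0989. Of klotho and FGF signalling 9 of 10 genes were measured, 7 higher and 2 lower, with 0 passing. Klb, the klotho relative, differed by 0.0645, and Fgfr1, a receptor that binds klotho, by -0.0714. None of these folate and FGF genes had an r of 0.7 or more with Ttr.

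Enpp2 encodes autotaxin, which makes lysophosphatidic acid, and the genes that read and degrade this lipid were measured in its absence. Of the 12 listed names, which hold the Plpp genes under their older Ppap2 names as well, 8 were measured. With green soybean 7 were higher and 1 lower, with 0 passing. Lpar3, a receptor, differed by 0.274 (limma adjusted p = 0.463) and Lpar1, another receptor, by 0.207 ± 0.0581 (SE, limma adjusted p = 0.438). Plpp1 and Plpp2, phosphatases that inactivate the lipid, differed by 0.137 and 0.101. Their median r with Ttr was 0.0700, and none reached 0.7.

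Markers of neighbouring cells and structures were measured beside these values, and their part in the pattern of Ttr was not tested. Of 16 genes of the leptomeninges, the thin membranes that cover the brain, all were measured. With green soybean 14 were higher and 2 lower, with 0 passing and a median of 0.124, where 65.0% of all tested probe sets were higher. For 7 of the 16, Ptgds and Slc13a4 among them, the authors had set the control mean to 0. That centring goes with a small deposited p, so the count and the median are not those of a list free of it. Their summed score ran from -2.57 to -0.152 on control arrays, from -0.836 to 0.694 on yellow arrays and from -0.755 to 2.19 on green arrays. Igf2, an insulin-like growth factor made by meninges and also by choroid plexus, had an r with Ttr of 0.838, Aldh1a2, a retinoic acid synthase, 0.764, Slc13a4, a sulfate transporter, 0.729, and Foxd1, a forkhead factor, 0.703, and the median over the 16 was 0.491. Ptgds, a secreted synthase of prostaglandin D2 found in both structures, differed most, by 0.569 ± 0.166 (SE, limma adjusted p = 0.438), yet had an r with Ttr of 0.116.

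Of the ependyma, the ciliated lining of the ventricles, 8 of 12 genes were measured and Mia, Enkur, Dynlrb2 and Spag16 were listed at 0 on at least 1 array. All 8 lay below the median level, 4 were higher and 4 lower with green soybean, and the median r with Ttr was 0.363. Foxj1, the master factor of motile cilia, differed by -0.0493. For endothelium 9 of 10 genes were measured, 7 higher and 2 lower, with a median r of 0.447. Of the oligodendrocyte genes 10 of 11 were measured, 4 higher and 6 lower, with a median r of 0.0459, and of the blood genes 1 of 7, Alas2, with an r of 0.267. None of the ependymal, endothelial, oligodendrocyte or blood genes passed limma's test or had an r of 0.7 or more.

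Subfield markers of the hippocampus were read as a description, since levels of different probe sets cannot check the tissue label. All 6 measured genes of dentate granule cells, of 7 listed, lay at or above the median level. So did 5 of the 7 measured genes of cornu ammonis pyramidal cells. Their list has 9 names and holds Nectin3 under its older name as well. The dentate genes had a median difference between green soybean and control of -0.0134 and a median r with Ttr of 0.463, and the cornu ammonis genes -0.00642 and 0.0374. Of 9 genes of thalamus and habenula, which adjoin the plexus of the third ventricle, 5 were higher and 4 lower, 5 lay below the median level, and the median r was 0.147. None of these 3 groups held a gene with an r of 0.7 or more.

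**Figure D4:**
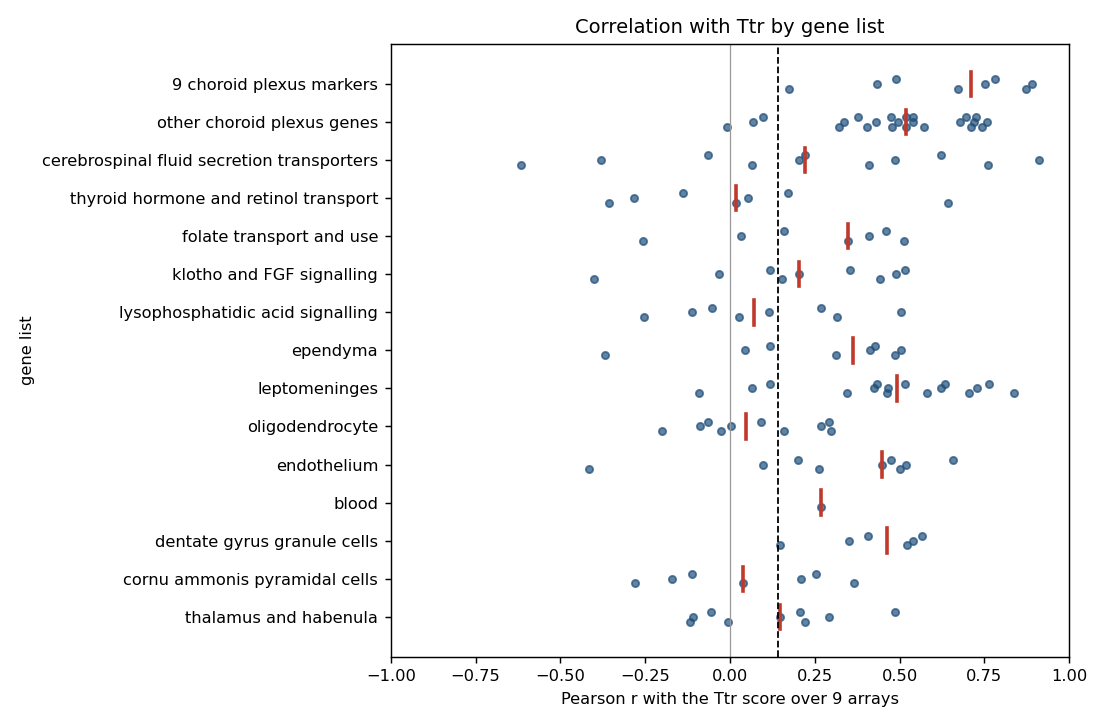
Pearson's r with Ttr over 9 arrays (x axis) for each measured gene of each list (y axis), with points for genes (8 for the markers, Ttr itself left out), bars for the median of each list and a dashed line for the median of all tested probe sets. The medians are 0.712 for the choroid plexus markers, 0.519 for other choroid plexus genes and 0.491 for leptomeninges, and 0.142 for all tested probe sets.

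Over the whole array the probe sets with a single gene symbol most like Ttr were not plexus markers. By r over 9 arrays they were Larp1, an RNA-binding regulator of translation, at 0.944, Smad6, an inhibitory Smad, and Itgb8, an integrin subunit, both at 0.940, Kcnd1, a potassium channel subunit, at 0.936, Ncf1, a subunit of the phagocyte oxidase, at 0.920, and Lbp, the lipopolysaccharide-binding protein, at 0.919. The lowest were Faap24 at -0.848, Sema3d at -0.845 and Gadd45b at -0.841. None passed with adjustment over all correlations (adjusted exact permutation p = 0.999). Larp1 ranged over much less than Ttr, from 0.871 on control replicate 2 to 1.12 on green soybean replicate 1.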

How the data were processed

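RNA of hippocampus was labelled as biotinylated cRNA and hybridised to 1-colour Affymetrix arrays, per the labels' protocols. The authors deposited a normalized score per probe set and array, made by the SuperNORM service per the labels, and 1 p-value per probe set from a test that is not given in the sources used here. A further 9 per-sample columns of the deposited p-value table fit no sample label and were left unused. Of 34760 probe sets, 6573 of control type and 6228 with an exact 0 on at least 1 array were left out, an exact 0 being read as no value, and 21959 were tested. The number of arrays limits the precision.

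Under R 4.3.3, limma 3.58.1 was used to fit differences (eBayes without trend) on the scores of all 9 arrays, with Benjamini-Hochberg adjustment over all probe sets tested and 2-sided tests. Correlations with Ttr used exact permutation over 362880 orderings. An exact permutation test of 3 arrays against 3 cannot go below 0.1, so it was not used for differences. On simulated data for green soybean versus control over 21959 probe sets, the fit recovered 18% of 50 probe sets shifted by 0.2 unit, 88% of those shifted by 0.5 and 98% of those shifted by 1. The shifted probe sets were drawn at random, each with its own spread and independent noise. These rates therefore do not hold for markers with a wide spread, such as Ttr, whose difference had an SE of 0.376.

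The markers, gene lists and settings were chosen with earlier results of these data known. Besides all markers, the text names up to 4 genes per list with the smallest p for green soybean versus control, and the 6 probe sets with the highest and 3 with the lowest r with Ttr. Genes of a list with an r of 0.7 or more were named after their values were seen. Alternatives were aligned array medians, quantile normalization, an intensity trend, exact zeros taken as values, centred probe sets left out, a filter at the median score, array weights, a replicate block, the 6 arrays compared only, and each array left out. Replicate numbers were not used to pair the arrays in the main fit, and whether they pair them is not known. Deviations from diet means correlated between -0.0817 and 0.165 for same-numbered arrays and between -0.169 and 0.186 for the others. These correlations run over all uncentred probe sets, so they cannot decide whether same-numbered arrays share a step that acts on few genes.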

Additional observations from a re-analysis of the deposited data

How the results depend on the processing

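No marker passed limma's adjusted test, and no marker's correlation with Ttr passed with adjustment, under any alternative run. Of 569 values of single markers under alternatives, 533 kept their sign and 36 turned. For green soybean versus control, Otx2 turned to -0.00990 with array medians aligned, -0.0352 with quantile normalization and -0.000266 with array weights, and Aqp1 to 0.0260 with array weights. For yellow soybean versus control, Folr1 turned to -0.00584 with medians aligned and -0.00715 with quantile normalization, and Kl to 0.0153 with array weights. For green versus yellow, Aqp1 turned to -0.00468 with medians aligned and -0.0396 with quantile normalization, and Kcne2 to -0.000530 with array weights. The r of Aqp1 with Ttr turned to -0.0321 with quantile normalization and -0.0236 without the 2 arrays farthest from the median of Ttr, where the markers at an r of 0.7 or more were 2. With array weights the median difference of the markers for green soybean versus control was 0.0582. The cause was not tested.

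With each array left out in turn, differences for green soybean versus control ran from -0.244 to 0.0666 for Kl, -0.0550 to 0.0447 for Aqp1 and -0.0925 to 0.104 for Otx2. For yellow soybean versus control they ran from -0.0369 to 0.0382 for Kl, -0.0562 to 0.0917 for Folr1, -0.00683 to 0.180 for Clic6 and -0.0653 to 0.0139 for Aqp1. For green versus yellow they ran from -0.297 to 0.388 for Ttr, -0.242 to 0.0680 for Kl, -0.00513 to 0.181 for Folr1, -0.174 to 0.226 for Kcnj13 and -0.0303 to 0.0695 for Aqp1. The median over the markers ran from 0.0666 to 0.299, from -0.00683 to 0.0917 and from -0.00513 to 0.215 in these comparisons, the lowest without green soybean replicate 3, control replicate 2 and green soybean replicate 1. The number of markers higher with green than yellow soybean ran from 4 to 9. The r of Aqp1 with Ttr ran from -0.0638 to 0.264, and the median r of the markers from 0.507, without green soybean replicate 1, to 0.817.

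The number of probe sets called was 0 in each comparison and the F-test, and 0 to 1 with an array left out, except for yellow soybean versus control, where it was 0. With exact zeros taken as values it was 3 for green soybean versus control, 11 for yellow soybean versus control, 8 for green versus yellow and 11 for the F-test, and with array weights 1 for green soybean versus control. With the replicate block, 0 probe sets were called, and Ttr differed by 0.497 ± 0.194 (SE, limma adjusted p = 0.475) and Slc4a5 by 0.256 ± 0.0539 (limma adjusted p = 0.451) between green soybean and control. With that block, markers at an unadjusted limma p below 0.05 were 4 of 9 for green soybean versus control (Ttr, Clic6, Kcnj13 and Slc4a5) in place of 1, against 9.82% of all tested probe sets, and 1 of 9 for yellow soybean versus control (Slc4a5) in place of 0, against 3.13%. Whether the numbers pair the arrays is not known. The filter at the median score removes most markers, which are dim or centred, and gave no median for them. Counts of markers higher and of markers at an r of 0.7 or more were added as alternatives after seeing the data.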
